A study of Oryza sativa with 81 samples.

Results

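Filling panicles of the rice hybrid WY308 (Oryza sativa), the F1 of WFB and R308, were compared with those of both parents. Members were the libraries labelled with these lines and this tissue, 3 for WY308, 3 for WFB and 3 for R308, which made 9 of the 81 libraries of the series. The series holds 4 parental lines (WFB, RFB, R998 and R308) and 5 F1 hybrids in 3 tissues, which are seedlings and young and filling panicles, and its title concerns the prediction of heterosis. WY308 and WY998 are the crosses of WFB with R308 and with R998. RFB crossed with R308 gave RY308, RFB crossed with R998 gave RY998, and WFB crossed with RFB gave WR. All plants grew in an experimental field with no treatment named. Total RNA was depleted of ribosomal RNA and made into stranded libraries. The labels do not say whether replicates came from separate plants or plots, so p-values measure the spread between these libraries, which may be technical.

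Heterosis is the superior performance that a hybrid can show beside the lines crossed to make it. At each gene an F1 carries 1 allele from either parent, and additive expression puts the hybrid at the arithmetic mean of the parental levels, the mid-parent. A hybrid at the level of a single parent shows the pattern called expression level dominance, and a hybrid outside the parental range the pattern called transgressive expression. In the filling panicle of rice, fertilised florets turn into grains and the endosperm lays down starch and storage protein, a sink that is tied to grain weight and yield. Whole panicles hold many cell types, so a lower level in these data can mean fewer cells of a type or less RNA per cell, which cannot be told apart.

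The 9 libraries held 31351220 to 45765805 counts. Levels are given as CPM, the counts of a gene scaled to the size of its library after the TMM correction of edgeR. Genes enriched in filling panicles, chosen in the lines RFB and R998 by an 8-fold difference from both other tissues, were used to check the tissue label. These 765 genes took 19.5% to 33.7% of the counts in the 9 libraries, against 0.17% to 0.206% in the young panicles and 0.0929% to 0.135% in the seedlings of the same 3 lines. Their share was 28.9% ± 8.13 in WY308, 23.9% ± 2.62 in WFB and 26.6% ± 5.04 in R308 (SD, n = 3), and WY308 was not told apart from WFB or R308 (exact permutation test, two-sided, p = 0.4 and 0.6, where the smallest possible p is 0.10). Replicate 7 was the lowest library of each of these 3 lines. In RY998, RFB, WY998 and RY308 replicate 7 was the highest, and in R998 and WR it was neither. Replicate 7 had 19.5% in WY308 against 33.4% and 33.7%, and 20.8% in R308 against 30% and 29.1%. In WFB it had 21.2% against 23.8% and 26.5%. Whether this bears on the counts that moved without WY308 replicate 7, given below, was not tested.

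The libraries of WY308 and R308 were more variable than those of WFB. The common biological coefficient of variation over genes was 32.3% in WY308, 28.8% in R308 and 13.6% in WFB. R998 had 32.6%, and the other 5 lines had 12.7% to 15.9%. R308 replicate 9 had counts on 37377 gene models, against 27193 to 28427 in the other 8 libraries of the cross. It held counts on 5619 of 6501 gene models that were close to absent from the other filling panicle libraries, RY308 replicate 8 set aside. They made up 0.184% of its counts. RY308 replicate 8, with counts on 34375 gene models, held counts on 3557 of these 6501, at 0.0302% of its counts. Results are therefore also given without R308 replicate 9, and some without both libraries. Across genes, the libraries of WY308 had a median correlation of 0.963 with those of RY998, 0.955 with RY308, 0.952 with R308 and 0.948 with WFB, and 0.973 among themselves. RY998 shares no parent with WY308, and its values are set beside the results below. This closeness raised the question whether the labels hold, and they were checked with genes counted in a single parent of the 4. Of 28 genes of R998 alone in filling panicles, 28 had more than 3 counts in RY998 and 4 in WY308, and of 22 genes of R308 alone 13 had them in WY308, 21 in RY308 and 3 in RY998. Summed over the R998 genes, the RY998 libraries reached 34.1% to 42% of the level of R998 and those of WY308 at most 0.49%. The median level of the R308 genes was 0.144 of R308 in WY308 and 0.2 in RY308, and that of the R998 genes 0.374 of R998 in RY998. In young panicles, 23 genes of R308 alone had a median of 0.54 in WY308. By presence in filling panicles these genes went with the labelled R998 and R308 parents of the 3 crosses, less clearly for R308 in WY308. No gene was counted in WFB alone or in RFB alone in filling panicles. OsR498G0611600600.01, given below, differed between WFB and RFB and between WY308 and RY308. Other genes of RY998 stood at levels near R308 that neither of its parents had. In young panicles, presence was less clear for R998, since 40 of 78 genes of R998 alone had more than 3 counts in WY308. Their median level there was 0.00473 of R998 over the 78 genes. Summed over these 78, WY308 replicate 6 held 1.68% of the R998 level, against at most 0.0901% in the other 2 libraries.

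The parents were compared first, because they set the range in which the hybrid is read. OsR498G0816020800.01 stood at 28.5, 27.3 and 24.7 CPM in WFB and had no count in any R308 library. Against a floor of 3 counts over the R308 libraries it was at least 923-fold higher in WFB (edgeR quasi-likelihood test, adjusted p = 4.52e-15). The fitted log2 difference was 12.9, a value that depends on how the fit treats the R308 level of 0. OsR498G0102662000.01 went the other way, with no count in WFB and 14.7, 13.1 and 17.1 CPM in R308, at least 579-fold higher in R308 (edgeR, adjusted p = 9.68e-06). Neither gene is named in the tables used here, which holds for all identifiers of the count table. A gene with no count may be silent in that parent or may differ so much in sequence that its reads were not counted. Among 25336 tested genes the parents differed in 34.1%, with 4722 higher in WFB and 3929 higher in R308 (edgeR, Benjamini-Hochberg adjusted p under 0.05). At 2-fold or more, 1370 were higher in WFB and 2230 in R308. Without R308 replicate 9 the counts were 3762 and 3629, and at 2-fold 1717 and 1839. Without a fold limit, the direction that held more genes was not settled. Size factors of DESeq2 gave 3889 genes higher in WFB and 4484 higher in R308, and leaving out R308 replicate 7 gave 3824 and 4426.

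WY308 differed from WFB in many more genes than from R308. Against WFB, 3447 genes were higher and 3847 lower in the hybrid, 28.8% of those tested. The larger direction was not settled, with 3819 higher and 3356 lower under size factors of DESeq2, and 3866 and 3712 without R308 replicate 9. Against R308, 561 were higher and 313 lower, 3.45% of those tested. Both counts rest on 1 spread per gene, estimated over all 27 filling panicle libraries. Without R308 replicate 9 they were 7578 and 762, and without WFB replicate 7 the count against WFB was 4840. With only the 9 libraries of the cross they were 4614 and 337, and with limma voom weights that allow each line its own spread they were 5432 and 417. The median absolute log2 difference of called genes was 0.762 against WFB and 1.28 against R308.

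**Figure D1:**
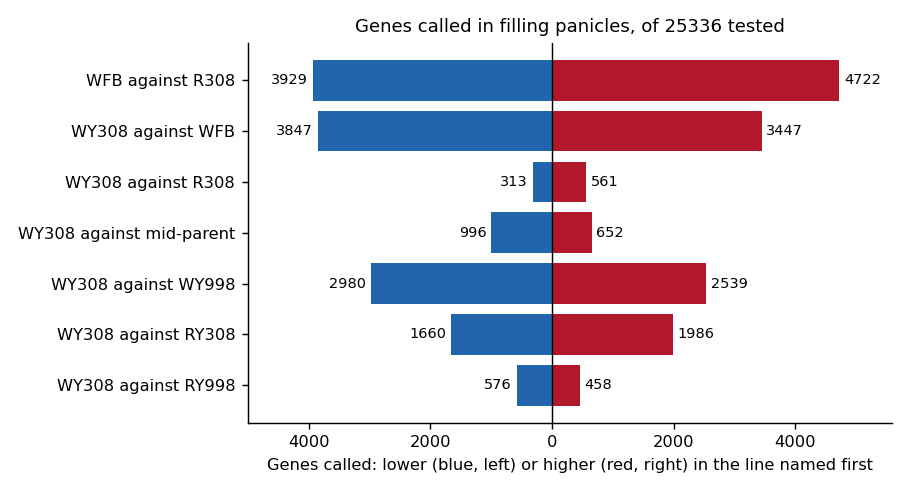
Number of genes called in each comparison of filling panicles (edgeR, adjusted p under 0.05; bars to the right are higher and bars to the left lower in the line named first, 3 libraries per line, 25336 genes tested). WY308 was called against R308 in 874 genes and against RY998 in 1034, and against WFB in 7294.

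Among the genes farthest above a parent in WY308 were genes with no count in that parent. OsR498G0714114400.01 stood at 24, 24.8 and 27.5 CPM in WFB, at 0 in the R308 libraries and at 11.3, 8.8 and 11.4 CPM in WY308. The hybrid lay between the parents in all 3 libraries, at least 360-fold above R308 (edgeR, adjusted p = 5.16e-15) and at 0.413 of WFB. OsR498G1120249400.01 showed the same arrangement from the other side. It had no count in WFB, 11.9, 13.4 and 13.6 CPM in R308 and 5.95, 7.82 and 4.11 CPM in WY308, at least 230-fold above WFB (edgeR, adjusted p = 7.93e-07) and at 0.459 of R308. OsR498G1120213700.01, with 11.7, 13.6 and 13.9 CPM in R308 and none in WFB, was at 4.62, 5.51 and 6.09 CPM in WY308. Libraries of the 3 lines did not overlap for any of these genes.

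Other genes of the hybrid stood near R308 rather than between the parents. OsR498G0102775000.01 had 59.5, 64 and 57.1 CPM in WFB, 1.7, 1.83 and 2.55 CPM in R308, and 2.23, 2.89 and 3.21 CPM in WY308. The hybrid was at 0.0892 of the mid-parent of 31.1 CPM (edgeR, adjusted p = 2.95e-11), and it was not told apart from R308 (log2 difference 0.45, adjusted p = 0.2). RY998, with no parent in common, had 3.9, 2.88 and 2.26 CPM, although its parents RFB and R998 had 58.8 to 75.1 and 24.5 to 29 CPM. OsR498G0815231500.01 was at 6.11, 6.11 and 6.44 CPM in WFB, 211, 191 and 170 CPM in R308 and 155, 205 and 199 CPM in WY308. Its hybrid libraries overlapped those of R308 and lay far from those of WFB (edgeR, adjusted p = 3.15e-11). Here too RY998 had 197, 238 and 211 CPM, while RFB had at most 7.65 CPM and R998 at most 23.9 CPM, and RY308 had 10.6, 10.3 and 7.94 CPM.

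**Figure D2:**
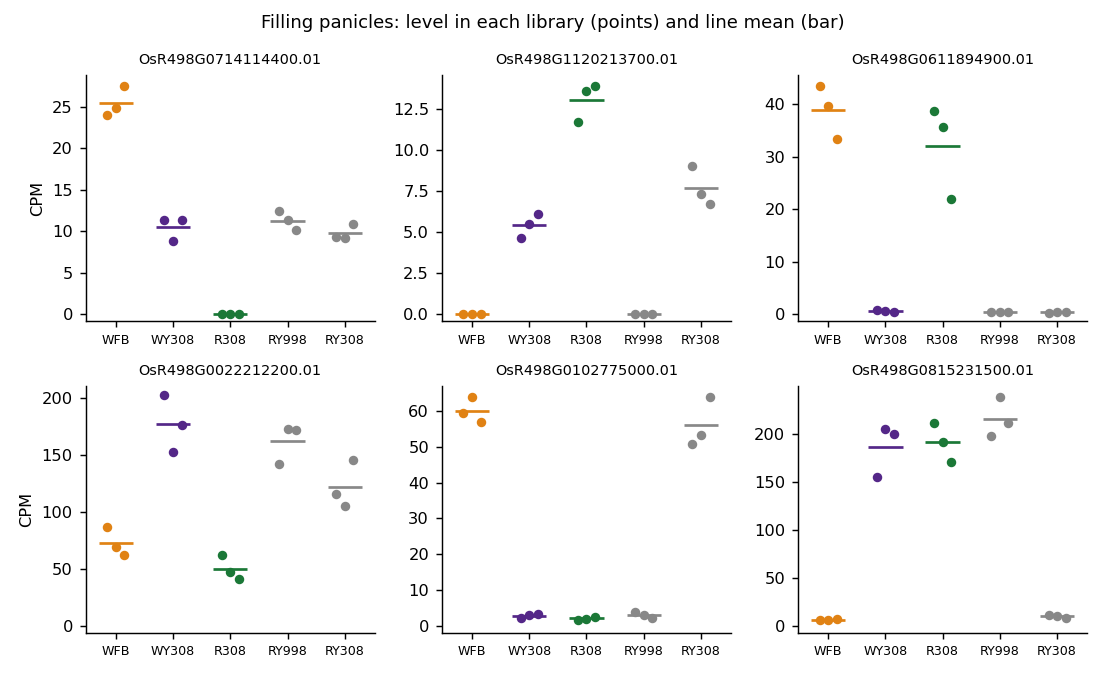
Level of 6 genes in each filling panicle library (points, CPM on a linear axis) with the mean of each line (horizontal bar). The first 2 genes stand between the parents in WY308, the next 2 below and above both, and the last 2 near R308, where WFB and RY308 are at 1 level and R308, WY308 and RY998 at another.

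Genes that differed between the parents were then sorted by which parent the hybrid could be told apart from. Of the 8651 such genes, 5134 differed between WY308 and WFB but not, by test, between WY308 and R308 (59.3%), and 299 did the reverse (3.46%). A further 466 lay between the parents and apart from both (5.39%), 5 lay beyond both, and 2747 differed from neither (31.8%). The excess was present in both directions of the parental difference. Among genes higher in WFB, 2684 of 4722 differed from WFB only and 204 from R308 only, and among genes higher in R308 it was 2450 and 95 of 3929. The tests are on a ratio scale, where the arithmetic mid-parent lies nearer to the higher parent. For genes higher in R308 the classes therefore cannot tell a hybrid at the level of R308 from an additive one. Of those at least 2-fold higher in R308, 48.3% lay nearer to R308, as given below. Without R308 replicate 9 the shares were 68.8% and 3.29% of 7391 genes, and without WY308 replicate 7 the genes that differed from R308 only numbered 502. These classes reuse the parental libraries that chose the genes, so they describe the cross and are not separate tests.

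**Figure D3:**
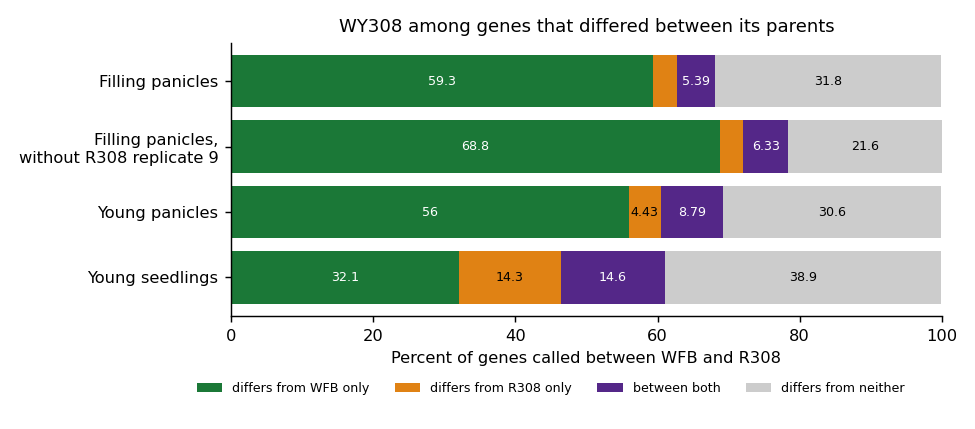
Share of the genes called between WFB and R308 in which WY308 was called against WFB only, against R308 only, against both while lying between them, or against neither, in filling panicles with and without R308 replicate 9 and in the other tissues (horizontal axis, percent). Genes beyond both parents, at most 0.22%, are not drawn. The share differing from WFB only was 59.3% in filling panicles, 56% in young panicles and 32.1% in seedlings.

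The test against the mid-parent, which uses the same libraries, was then counted by side of the mid-parent. Of the 1221 genes called both between the parents and between WY308 and the mid-parent, 1187 lay on the R308 side of the mid-parent (97.2%) and 34 on the WFB side. Genes higher in WFB gave 736 of 745 on the R308 side, and genes higher in R308 gave 451 of 476. These counts keep only genes called in both tests, so they are a description and not separate support. Of genes at least 2-fold higher in R308, chosen without the hybrid, 48.3% lay nearer to R308, as given below. Leaving out each of the 9 libraries in turn left 91.1% to 99% on the R308 side, of 526 to 1554 genes. The crosses of the same tissue differed among themselves by this count. RY308, the other cross of R308, was called against its mid-parent in 6.14% of genes, RY998 in 12.7% and WY998 in 0.142%. In RY308, 939 of 975 genes called in both tests lay on the side of RFB. In RY998, 496 of 800 lay on the side of R998, and in WY998, 20 of 23 lay on the side of WFB. These crosses share libraries with WY308 except for RY998, and differences between the shares were not tested.

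A position was also computed for each gene, set to 1 at the level of WFB, to 0 at the mid-parent and to -1 at the level of R308. For the 1370 genes at least 2-fold higher in WFB the median position of WY308 was -0.555, and 85.8% lay nearer to R308. The medians of the single hybrid libraries were -0.634, -0.611 and -0.554, so all 3 lay below 0. For the 2230 genes at least 2-fold higher in R308 the median was 0.0257, and 48.3% lay nearer to R308. This second value had no settled sign. It was -0.206 over 1839 genes without R308 replicate 9, 0.314 and 0.38 without R308 replicates 7 and 8, and -0.0347, -0.0625 and -0.0274 without WFB replicates 7, 8 and 9, and -0.364 on the scale of log2(CPM + 0.1). For genes higher in WFB, leaving out any 1 library of the cross kept the median between -0.605 and -0.476. Genes with small parental differences lay nearest to R308. At log2 differences from 1 to 2 the median was -0.678 for genes higher in WFB and -0.315 for genes higher in R308, and at log2 differences over 5 it was -0.234 and 0.166.

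**Figure D4:**
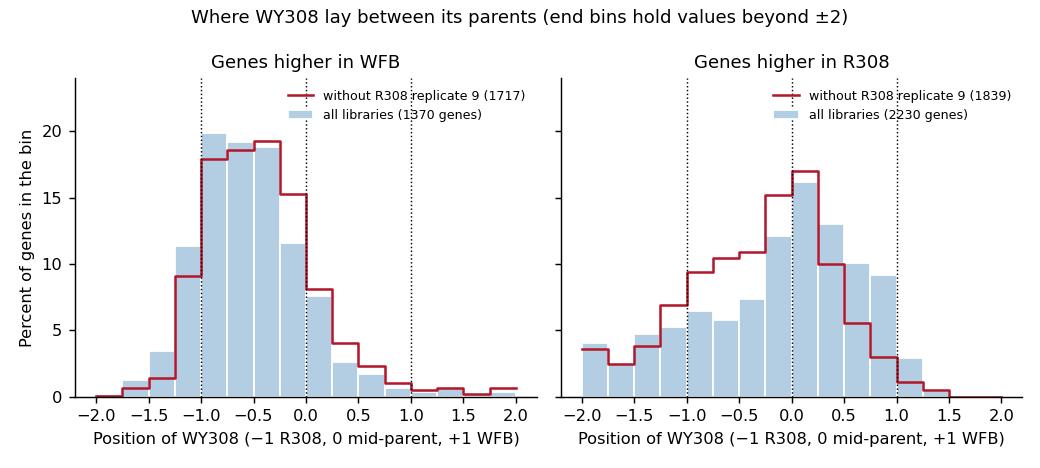
Distribution of the position of WY308 between its parents (horizontal axis, -1 at R308, 0 at the mid-parent, 1 at WFB) for genes at least 2-fold higher in WFB (left) or in R308 (right), as percent of genes per bin; bars use all libraries and the red line leaves out R308 replicate 9. The left distribution centres on the R308 side (median -0.555, or -0.476 without the library), and the right one moves from 0.0257 to -0.206.

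Genes counted in 1 parent only were then read in the hybrid. The other parent may lack such a gene, hold it silent, or differ so much in sequence that its reads were not counted. Reads were not assigned to alleles, so the hybrid level is that of the gene. There were 86 genes with at least 1 CPM in WFB and no more than 3 counts over R308, and 102 genes of the reverse kind. Additive expression puts both at 1 on the scale of the mid-parent. WFB genes had a median of 0.757 in WY308 (quartiles 0.556 and 0.886), and R308 genes a median of 0.909 (0.708 and 1.08). By library the medians were 0.721, 0.729 and 0.702 for WFB genes and 0.88, 0.901 and 0.79 for R308 genes. Among the WFB genes 19 were called below the mid-parent (22.1%), and among the R308 genes 1 (0.98%), against 3.93% below and 2.57% above over all genes tested. In neither set was a gene called above. Leaving out 1 library moved the medians to between 0.74 and 0.795 for WFB genes and between 0.638 and 0.934 for R308 genes. The highest WFB gene, OsR498G0611586900.01, was at 56.5, 50.2 and 52.6 CPM in WFB and 21.9, 21.3 and 21.2 CPM in WY308, while R308 had at most 0.0567 CPM. The second, OsR498G0714047000.01, was at 42.7 to 46.6 CPM in WFB and spread over 7.64, 26.9 and 31.9 CPM in WY308. Of the R308 genes, OsR498G1120302400.01 was at 28.1, 24.3 and 23.3 CPM in R308 and 12.1, 12.9 and 9.47 CPM in WY308. OsR498G1019081100.01 had the highest mean and rested on single libraries, with 0, 120 and 1.7 CPM in R308 and 0.0484, 0.0609 and 51.5 CPM in WY308.

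Against the mid-parent, over all genes, WY308 lay below in 996 and above in 652, 6.5% of those tested (edgeR, adjusted p under 0.05). The median log2 deviation of all genes was -0.03. Parents of 761 genes below and 460 genes above differed by test, and those of 235 and 192 did not. OsR498G0612408600.01 lay farthest below, with 15.8, 20.9 and 17.9 CPM in WFB, 0, 0 and 1.3 CPM in R308, and 0.0726, 0.0609 and 0.103 CPM in WY308. Its log2 deviation was -6.84 ± 0.732 (SE, edgeR, adjusted p = 2.76e-06), and the only R308 counts came from replicate 9. RY308 held the same gene at 17.5, 16 and 12.4 CPM, and RY998 at 0.0291, 0.08 and 0.0262 CPM, below RFB at 16.8 to 20.9 CPM and R998 at 11.3 to 15.8 CPM. OsR498G0307059100.01 was among the genes farthest above, with 13.9, 30.2 and 117 CPM in WY308 against 28.3, 30.7 and 13.8 CPM in R308 and at most 1.85 CPM in WFB. It rested on WY308 replicate 9, without which its log2 deviation was 0.78 and its adjusted p 0.498 (edgeR).

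The number of genes called against the mid-parent depended on single libraries and on how the spread was estimated. It was 599 without WY308 replicate 9, 870 without WFB replicate 7, 1071 without R308 replicate 9 and 2701 without WY308 replicate 7. It was 223 with only the libraries of the cross and 299 with a spread for each line (limma voom). Genes below outnumbered genes above in these settings, except without WY308 replicate 7 or WY308 replicate 8, where 1472 and 734 lay above and 1229 and 663 below. A geometric mean of the parents, which lies under the arithmetic mean wherever the parents differ, gave 1409 above and 814 below.

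WY308 lay outside the range of both parents in 75 genes, 0.296% of those tested, 21 above and 54 below. The parents of 70 of these, 19 above and 51 below, did not differ by test. OsR498G0611894900.01 lay farthest below. It was at 43.5, 39.6 and 33.4 CPM in WFB, 38.7, 35.6 and 22 CPM in R308, and 0.726, 0.548 and 0.411 CPM in WY308, at 0.0158 of the mid-parent (edgeR against R308, the nearer parent, log2 difference -5.82 ± 0.311 (SE), adjusted p = 6.18e-12). OsR498G0612784300.01 was next, with 180, 188 and 197 CPM in WFB, 160, 146 and 82.9 CPM in R308 and 7.09, 5.51 and 7.7 CPM in WY308 (edgeR against R308, adjusted p = 1.31e-07). Both were low in the other crosses of WFB or RFB with R308 or R998 too. In RY308 and RY998 the first gene was at 0.232 to 0.433 CPM and the second at 3.48 to 15.5 CPM, and in RY308, RY998 and WY998 both lay below the mid-parent (edgeR, adjusted p from 1.63e-12 to 3.17e-06). In WR, the cross of WFB with RFB, neither was called (edgeR, adjusted p = 0.176 and 0.139).

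Among the genes above both parents, OsR498G0022212200.01 was at 203, 153 and 177 CPM in WY308, against 86.8, 69.6 and 62.2 CPM in WFB and 61.8, 47.5 and 41.4 CPM in R308. The hybrid libraries did not overlap those of either parent (edgeR against WFB, log2 difference 1.29 ± 0.176 (SE), adjusted p = 9.68e-06). This gene was also above the mid-parent in the young panicles and seedlings of WY308 (log2 deviations 1.77 and 1.37, edgeR, adjusted p = 8.72e-09 and 0.0053). In filling panicles it lay above the mid-parent in RY308, RY998 and WY998, by 1.07, 1.48 and 1.63 on the log2 scale, and below it in WR, by -0.69 (edgeR, adjusted p = 0.0382). OsR498G0714192300.01 was at 3.8, 8.28 and 13.5 CPM in WY308, with at most 1.89 CPM in WFB and 2.18 CPM in R308 (edgeR against WFB, the nearer parent, adjusted p = 0.000637). The count of genes beyond both parents was 34 without WY308 replicate 9, 38 without R308 replicate 9, 48 without WFB replicate 7, 118 without R308 replicate 8 and 261 without WY308 replicate 7. It was 14 with only the libraries of the cross and 17 with a spread for each line (limma voom), and without WY308 replicate 7 or 8 more genes lay above both parents, 150 and 56, than below, 111 and 35.

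Comparison with the other hybrids of the tissue showed that a shared parent did not order the differences. WY308 and RY308 share R308, and their other parents, WFB and RFB, differed in 180 genes (0.71%). WY308 differed from RY308 in 3646 genes, 1986 higher and 1660 lower (14.4%, edgeR, adjusted p under 0.05). From WY998, which shares WFB, it differed in 5519 (21.8%, 2539 higher and 2980 lower). From RY998, which shares neither parent, it differed in 1034 (4.08%, 458 higher and 576 lower). Size factors of DESeq2 gave 2872 higher and 2546 lower against WY998, and leaving out WY308 replicate 7 gave 553 and 458 against RY998. These 3 comparisons were chosen after the counts against the parents had been seen, and they share the WY308 libraries. The ranges on leaving out 1 library, 2389 to 4044, 3795 to 5753 and 623 to 1169, did not overlap between RY998 and the others. The lowest for RY308 were 2389 and 2416 without RY308 replicates 7 and 8, and the lowest for RY998 were 658 and 623 without RY998 replicates 7 and 9. Of 1624 genes at least 2-fold higher in R308 than in both WFB and RFB, 520 were higher and 11 lower in WY308 than in RY308. Of 1052 genes at least 2-fold lower in R308 than in both, 6 were higher and 353 lower in WY308.

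OsR498G0611600600.01 and OsR498G0101835100.01 were the genes farthest above RY308. The first followed the parents, with 24.2, 20.2 and 22.7 CPM in WFB, at most 0.0354 CPM in RFB, 8.64, 9.62 and 7.83 CPM in WY308 and at most 0.133 CPM in RY308 (edgeR, adjusted p = 3.07e-11). The second did not. It was at 7.4, 4.53 and 3.18 CPM in R308, 5.32, 5.42 and 8.68 CPM in WY308 and at most 0.0542 CPM in RY308, whose parent R308 holds it (edgeR, adjusted p = 7.72e-09). RY998 had 4.34, 6.88 and 6.93 CPM, with at most 0.241 CPM in its parents. OsR498G0307083700.01 was among the genes farthest below RY308, at 0.169, 0.517 and 0.642 CPM in WY308 against 10.5, 13.3 and 12.3 CPM (edgeR, adjusted p = 8.67e-07), and RY998 had at most 0.524 CPM where its parents had 5.61 to 19.6 CPM.

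On the scale from R308 to WFB, the other lines were placed for the genes that chose the scale. For genes higher in WFB, the libraries of WY308 had medians from -0.634 to -0.554. Those of RY998 lay from -0.331 to -0.265, those of R998 from -0.352 to -0.222, those of RY308 from -0.0778 to -0.0128 and those of WY998 from 0.368 to 0.423. For genes higher in R308, WY308 lay from 0.0285 to 0.123 and RY998 from 0.188 to 0.273. On the second set RY998 lay nearer to R308 than both of its parents, with R998 at 0.326 to 0.423 and RFB at 0.933 to 0.984. Genes counted in R308 only did not follow this order. Their median was at 0.909 of the WFB and R308 mid-parent in WY308, 0.963 in RY308, 0.682 in RY998 and 1.3 in R998. Whether sampling time, stage or field position differed between the lines is not given in the labels, and its part in these positions was not tested.

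**Figure D5:**
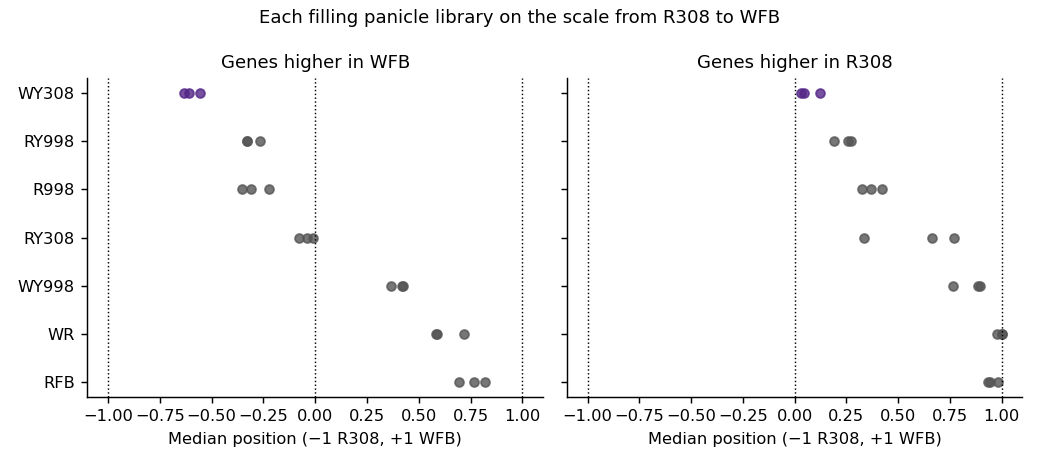
Median position of each filling panicle library of 7 lines on the scale from R308 (-1) to WFB (1), for genes at least 2-fold higher in WFB (left) or in R308 (right). Each point is 1 library. WY308 lies nearest to R308 on both panels, followed on the left by R998 and RY998.

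The deviation of WY308 from its mid-parent was tested against that of RY998, since these crosses share no library. They differed in 147 genes (0.58%, edgeR, adjusted p under 0.05), with the deviation of WY308 higher in 45 and lower in 102. Alone, WY308 deviated in 1648 genes and RY998 in 3217. OsR498G0815231500.01 and OsR498G0101835100.01, both described above, had the largest differences downward, -3.42 and -4.19 on the log2 scale (edgeR, adjusted p = 5.33e-06 and 0.000201). Levels of the hybrids were close, and the difference came from the mid-parents, R308 holding both genes and R998 and RFB little of either. OsR498G0815932400.01 went upward by 3.03 (edgeR, adjusted p = 0.00831), with 3.87, 10.7 and 10.5 CPM in WY308 near its parents and 2.27, 3.65 and 2.13 CPM in RY998 below R998 at 21.4, 40.1 and 27.7 CPM. The count was 73 with only the libraries of both crosses. Leaving out 1 of 18 libraries gave 65 to 162, with 65, 68 and 83 without RY998 replicates 9, 7 and 8, 88 and 93 without RFB replicates 8 and 7, and 92 and 97 without R308 replicates 7 and 8.

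The same cross was compared in its other tissues, which share no library with the filling panicles. WFB and R308 differed in 36.7% of genes in young panicles and 20.1% in seedlings. WY308 differed from WFB in 26.9% and 12.2% and from R308 in 5.17% and 6.52% (edgeR, adjusted p under 0.05). Young panicles of WY308 also stood on the R308 side, with 1165 of 1207 genes called against the mid-parent there (96.5%). Seedlings had 92 of 114 (80.7%). Over all genes at least 2-fold apart between the parents, chosen without the hybrid, the median position was -0.233 in young panicles, with 69.5% nearer to R308, and 0.0115 in seedlings, with 48.4% nearer to R308. Seedlings had 187 genes called against the mid-parent (0.857%) and young panicles 1332 (5.38%). Of 637 genes above the mid-parent in filling panicles and tested in both, 189 were above in young panicles too (29.7%, where 2.96% of all genes were above), and 177 of 941 below were below in both (18.8%, against 2.64%). These were 27.3% and 28.7% of the young panicle calls. In seedlings, where 0.207% of all genes were above and 0.655% below, 3 of 616 genes above were above again (0.487%) and 38 were below. Of 941 below, 14 were below again (1.49%) and 11 above. Of the genes above in filling panicles, 22.7% had a deviation of the same sign in seedlings, against 50.1% of all genes. Without R308 replicate 9 the shares in young panicles were 36.2% and 23.3% of the filling panicle calls and 15.6% and 27.3% of the young panicle calls, and 23.5% of the genes above kept the sign in seedlings.

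Deviations differed between filling and young panicles in 172 genes, 45 higher and 127 lower in filling panicles (0.654%, edgeR, adjusted p under 0.05). OsR498G0102775000.01 lay 4.03 higher on the log2 scale in filling panicles (edgeR, adjusted p = 3.82e-07). Its young panicle levels were 67.2, 62.6 and 60.5 CPM in WFB, at most 0.209 CPM in R308 and at most 0.215 CPM in WY308, so the hybrid stood near R308 in both tissues and R308 itself was lower in young panicles. In seedlings the 3 lines overlapped, at 211 to 255, 169 to 250 and 254 to 295 CPM in WFB, R308 and WY308. OsR498G0305343300.01 was alike, with 169, 165 and 161 CPM in WFB, 33.6, 44 and 37.2 CPM in R308 and 40.5, 45.6 and 42.2 CPM in WY308 filling panicles, and 2.5, 2.78 and 3.08 CPM in WY308 young panicles where WFB had 148 to 159 CPM. Its deviation was 3.57 higher in filling panicles (edgeR, adjusted p = 1.63e-12). The count depended on single libraries. Without WY308 replicates 4, 5, 6, 7 and 8 in turn it was 63, 75, 855, 1121 and 353, and with a replicate block 78. Without WFB replicates 4, 5 and 7 it was 89, 95 and 70, and without R308 replicates 5, 6 and 8 it was 89, 105 and 283. Size factors of DESeq2 gave 54 genes higher and 67 lower, and leaving out the identifiers of block 00 gave 50 and 66.

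Against seedlings the deviations differed in 1761 genes, 715 higher and 1046 lower in filling panicles (6.69%, edgeR, adjusted p under 0.05). More genes were higher than lower under size factors of DESeq2, 856 against 724, and without the identifiers of block 00, 784 against 757. OsR498G0612408600.01 had 238, 193 and 213 CPM in WFB seedlings, 192, 157 and 156 CPM in R308 and 190, 183 and 180 CPM in WY308, close to the mid-parent. Its deviation was 6.79 lower in filling panicles on the log2 scale (edgeR, adjusted p = 1.19e-05). OsR498G1018504700.01 lay 5.62 higher (edgeR, adjusted p = 0.0123), at 6.41, 5.05 and 6.06 CPM in WY308 filling panicles, 3.91, 3.45 and 3.22 CPM in WFB and 4.55, 5.09 and 4.62 CPM in R308. In seedlings WY308 had no count and its parents at most 0.117 CPM, so the fitted difference is that of a gene near 0 in 1 tissue. The count was 1071 without WY308 replicate 9, 1131 without WY308 replicate 2, 1140 without WY308 replicate 3 and 3228 without WY308 replicate 7.

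Genes that deviated from the mid-parent were spread over levels and identifier blocks. Calls made up 2.3% of genes with a mid-parent under 1 CPM, 7.61% from 1 to 10 CPM, 7.37% from 10 to 100 CPM and 6.91% over 100 CPM. Genes below outnumbered genes above from 1 to 10 CPM, 515 to 165, and genes above outnumbered genes below over 100 CPM, 66 to 24. Without R308 replicate 9 the latter were 25 and 25. The median length was 1740 bases for genes below, 1410 for genes above and 1470 for all tested. By the first digits of the identifier, called genes made up 5.87% to 7.6% of blocks 01 to 12, and 10 of 99 genes of block 00. Beyond both parents, block 00 stood apart, with 4 genes above and 3 below, 7.07% of the block against 0.296% over all genes. Block 06 held 2053 of the tested genes and 11 of the 54 genes below both parents, 0.536% of the block. Of the 765 genes enriched in filling panicles, 108 were higher and 54 lower in WY308 than in WFB (21.2%, against 28.8% of all genes), 26 were higher and 12 lower than in R308 (4.97%, against 3.45%), and 18 lay above and 7 below the mid-parent (3.27%, against 6.5%). Their median log2 deviation from the mid-parent was 0.25, against -0.03 for all genes.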

How the data were processed

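Per the labels' protocols, the authors made stranded, ribosomal RNA-depleted libraries from total RNA. The deposited table holds raw read counts per gene model and sample, made by the authors, and a second deposited table holds the authors' FPKM. HISAT2 is named by the submitters' processing notes without a version. For genome build and counting tool, the entry is not given in the sources used here. FPKM values served only as a check: 100% of 1678243 values with 20 counts or more matched count over length and library total within 1%.

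Of 38714 gene models, 452 had no count in any library. Tests used edgeR 4.0.16 under R 4.3.3 (low counts filtered with filterByExpr, TMM, quasi-likelihood test, Benjamini-Hochberg adjustment, threshold 0.05), with limma 3.58.1 and DESeq2 1.42.0 as alternatives. All 27 filling panicle libraries of 9 lines entered 1 fit. The arithmetic mid-parent entered as an offset per gene, with each parent weighted by its share of the parental sum (in steps of 0.1). Each SE given is the absolute log2 difference divided by the square root of the F value of its test. It was not estimated apart from that test, and for a deviation it includes the parental error. Deviations were compared between tissues in 1 fit of 27 libraries. Libraries of 1 line differed by 17.8 to 277 times the counting variance (chi-square per degree of freedom), more than 1 library sequenced again would give. A gene is beyond both parents when it is called against both in 1 direction. The genes named are the 2 with the largest log2 change per direction among called genes with a mean of at least 5 CPM in the higher group and libraries of the groups apart (for the mid-parent, all on 1 side of it), and the 2 highest for genes of 1 parent. Genes of 1 parent had at least 1 CPM in it and at most 3 counts in the other. Figures and summaries used Python 3.11.15, numpy 2.4.6, scipy 1.17.1, pandas 2.3.3 and matplotlib 3.10.9. The fits were also run on simulated data in which all lines shared 1 spread per gene. Those data cannot show what an unequal spread between lines does to the calls. None of the identifiers (0 of 38714) was in the gene name table of 39387 genes, so no pathway is described and no sequence is shown. Replicate numbers are shared between lines. Deviations of same-numbered libraries correlated by 0.326, 0.108 and 0.127 between WY308 and R308, and by -0.148 to 0.217 in the 6 pairs with WFB. WY308 replicate 8 and WFB replicate 9, which differ in number, reached 0.134. Whether the numbers pair libraries was therefore not settled. With a replicate block WY308 differed from R308 in 759 genes, against 874. The lines, gene sets and comparisons were chosen with earlier results of these data known, and those of WY308 with RY308, RY998 and WY998, the fit with weights by line the counts by side of the mid-parent and the check of parentage were added after seeing the data.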

Additional observations from a re-analysis of the deposited data

Results flagged for a closer look

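Named genes whose deviation from the mid-parent differed between crosses or tissues by a test of the difference itself (edgeR, adjusted p under 0.05) are given here with the log2 difference. Between WY308 and RY998 in filling panicles it was 7.09 for OsR498G1120000600.01, 3.03 for OsR498G0815932400.01, -4.19 for OsR498G0101835100.01 and -3.42 for OsR498G0815231500.01. OsR498G1120000600.01 was at 17.6, 18.1 and 16.6 CPM in R308 and 8.03, 8.76 and 9.27 CPM in WY308, and it had no count in R998 or RY998, while RFB had 0.142, 0.673 and 0.806 CPM. Its adjusted p was 0.0434 (edgeR), and leaving out any 1 library of R308, RY998 or WY308 gave 0.0529 to 0.147.

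Between filling and young panicles of WY308 it was 4.03 for OsR498G0102775000.01, 3.57 for OsR498G0305343300.01, -5.41 for OsR498G0306997800.01 and -3.01 for OsR498G1120352700.01. OsR498G0306997800.01 was uneven between libraries, with 33.4, 2.48 and 16 CPM in R308 filling panicles and 55.9, 6.23 and 2.95 CPM in WY308 young panicles, and without WY308 replicate 4 its adjusted p was 0.0948 (edgeR). OsR498G1120352700.01 was at 9.66, 9.04 and 7.42 CPM in WFB filling panicles, at most 1.33 CPM in R308 and 0.314, 0.517 and 0.308 CPM in WY308.

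Between filling panicles and seedlings of WY308 it was 7 for OsR498G0714192300.01, 5.62 for OsR498G1018504700.01, -6.79 for OsR498G0612408600.01 and -6.17 for OsR498G0509967100.01. OsR498G0714192300.01 had no count in WY308 seedlings, 6 in WFB and 2 in R308, so its value is a fitted difference from a gene near 0 in 1 tissue. OsR498G0509967100.01 had no count in WY308 filling panicles and at most 0.454 CPM in R308, while its seedlings had 13.4, 12.5 and 14.6 CPM in WY308 and 26.3, 16 and 25.1 CPM in R308.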

How the results depend on the processing

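At 2-fold or more the counts of called genes were 3600 for the parents, 2604 for WY308 against WFB, 543 against R308, 439 against the mid-parent, 1435 against RY308, 549 against RY998, 2088 against WY998, 38 beyond both parents, 1700 different from WFB only, and 81 and 761 for filling panicles against young panicles and seedlings. With only the libraries compared, WY308 gave 4614 against WFB, 337 against R308, 223 against the mid-parent, 631 against RY998, 14 beyond both, 116 different from R308 only, and 73 for the deviation against RY998. With limma voom weights by line these were 417 against R308, 299 against the mid-parent, 2214 against RY308, 582 against RY998, 17 beyond both and 96 from R308 only. DESeq2 gave 1439 against R308, 2534 against the mid-parent, 161 beyond both, 494 from R308 only, and 347, 720 and 2680 for deviations against RY998, young panicles and seedlings. No filter on low counts left 43 beyond both, and a geometric mid-parent gave 384 for the deviation against RY998. Without R308 replicate 9 and RY308 replicate 8 together there were 936 against the mid-parent and 39 beyond both, with positions of -0.375 for all genes, -0.475 for genes higher in WFB and -0.21 for genes higher in R308. Parents at least 4-fold apart gave positions of -0.0146, -0.405 and 0.169, and log2(CPM + 0.1) gave -0.348, -0.324 and -0.364. WFB genes lay at 0.777 of the mid-parent with DESeq2 size factors and 0.783 without block 00. Enrichment at 4-fold gave shares of 1.79% for young panicle genes and 7.18% for seedling genes, and at 16-fold 0.109% and 0.0312%. The fit with a replicate block gave 78 for filling against young panicles and moved no other count by over 1.5 times, with 1286 against the mid-parent.

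Leaving out 1 library gave 6390 to 9377 for the parents, 4840 to 7578 against WFB, 588 to 1302 against R308, 599 to 2701 against the mid-parent, 2389 to 4044 against RY308, 623 to 1169 against RY998, 3795 to 5753 against WY998, 34 to 261 beyond both, 3435 to 5083 from WFB only and 204 to 502 from R308 only. Deviations gave 65 to 162 against RY998, 63 to 1121 against young panicles and 1071 to 3228 against seedlings. Position gave -0.375 to 0.0357 for all genes, -0.605 to -0.476 for genes higher in WFB and -0.206 to 0.38 for genes higher in R308, and genes of 1 parent 0.74 to 0.795 for WFB and 0.638 to 0.934 for R308. The median over all genes changed sign without R308 replicate 8 (0.0357), and the cause was not tested. Of 688 values of named genes under these settings, 640 kept their side of the threshold, 48 lost it and 0 changed sign, in 6 of 32 results. The effect of depth on the counts was not tested.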
